A study of Mus musculus with 6 samples.

Results

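Fatty acid oxidation in liver was described here through 33 listed genes of the carnitine shuttle, mitochondrial beta-oxidation, ketone body formation and peroxisomal oxidation. A gene was taken as measured if the platform annotation gave a feature its symbol and no other, which held for 26 of the 33 and for 20261 genes in all. Acsl1, Acot1, Acadl, Acad11, Decr2, Acaa1a and Acaa1b had no such feature and are not reported. All 26 passed the filter on dim features, and the fit below covered 16828 genes.

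The arrays compared hepatocellular carcinoma with non-tumorous liver of SRSF3HKO mice on a C57BL/6 background, aged 24 months and untreated. SRSF3HKO mice lack the splicing factor SRSF3 in hepatocytes. Both tissues came from such mice, so the comparison is of tumour with liver within this genotype. Whether the tumour cells themselves carry the deletion was not tested. The 3 tumour arrays bear the numbers 405, 483 and 616, and the 3 non-tumour arrays the numbers 405, 483 and 623. The labels leave unstated whether a shared number marks one animal and whether each array is a different mouse, so the p-values measure the spread between these samples. The Cre line behind the deletion is not given in the sources used here, and no liver that keeps Srsf3 was among the arrays. The Srsf3 feature lay at 10.79, 10.55 and 9.89 on tumour 405, 483 and 616, against 10.51, 10.55 and 9.36 on non-tumour 405, 483 and 623, and whether it reads the deleted part is not known.

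Fatty acids are activated to acyl-CoA, carried into mitochondria as carnitine esters, and shortened in repeated rounds of dehydrogenation, hydration, dehydrogenation and thiolysis. The electrons pass through the electron transfer flavoprotein to the respiratory chain, and in liver much of the acetyl-CoA becomes ketone bodies. Peroxisomes shorten very long and branched chains first and hand the products on as carnitine esters. Many of these genes are targets of PPAR-alpha, the nuclear receptor of fasting, and of its coactivator PGC-1alpha, the product of Ppargc1a.

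Levels are log2(intensity + 16) after quantile normalization, which gives every array the same distribution, and differences are tumour minus non-tumour. Median intensities as deposited were 83.6 to 151 on tumour arrays and 122 to 197 on non-tumour arrays. Xist, which silences one X chromosome in females, lay at 5.17 on non-tumour 623 and at 10.55 to 12.30 elsewhere, so that array differed from the others in sex. Of 4 genes known as markers of fetal liver and hepatocellular carcinoma, Afp and Gpc3 were highest on an array labelled non-tumour, while H19 and Igf2 were highest on a tumour array. Afp lay at 5.95, 5.29 and 7.04 on tumour 405, 483 and 616, against 10.92, 5.40 and 5.88 on non-tumour 405, 483 and 623. Gpc3 lay at 6.39, 6.70 and 6.499 on tumour 405, 483 and 616, against 12.80, 6.76 and 10.36 on non-tumour 405, 483 and 623. H19 lay at 11.09, 12.24 and 12.78 on tumour 405, 483 and 616, against 12.55, 7.36 and 11.13 on non-tumour 405, 483 and 623. Igf2 lay at 4.64, 11.91 and 8.72 on tumour 405, 483 and 616, against 8.82, 5.95 and 7.57 on non-tumour 405, 483 and 623. None of the 4 passed the test. The hepatocyte markers Alb, Apob, Ttr, Fgb, Hnf4a, Tat, Cps1 and Pck1 were measured, and their summed normalized intensity was 39777 to 53774 on tumour arrays and 49755 to 59170 on non-tumour arrays. The same sum over 11 Kupffer cell and macrophage markers was 1844, 14183 and 5525 on tumour 405, 483 and 616, against 4501, 12517 and 17315 on non-tumour 405, 483 and 623. Sums over cholangiocyte, lymphocyte, neutrophil and erythroid markers reached at most 885, 882, 1790 and 3074 on tumour arrays and 759, 1132, 876 and 1271 on non-tumour arrays. Of these markers Ly6g, of neutrophils, did not pass the filter on dim features. The sum over adipocyte and muscle markers was 593 to 644 on tumour arrays and 543 to 765 on non-tumour arrays. In bulk tissue, fewer cells of a type and less RNA per cell cannot be told apart.

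No fatty acid oxidation gene differed between tumour and non-tumorous liver beyond the spread between arrays. Of the 26 genes, limma (adjusted p under 0.05 over all genes) called 0 higher and 0 lower, against 0% of all genes in either direction, and adjusted p ran from 0.916 to 0.994. At an unadjusted p under 0.05 the count was again 0 of 26, where 2.7% of all genes were higher and 1.02% lower. The 3 tumour values overlapped the 3 non-tumour values in all 26 genes. Over all genes, 3.97% lay higher without overlap and 3.88% lower.

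How far the genes as a whole lay above 0 depended on how the arrays were scaled, while their median stayed above 0 on each scale. After quantile normalization 16 of 26 were higher in tumour, with a median difference of 0.15 log2 units, where 43.7% of all genes were higher and their median was -0.05. On the deposited scale 15 of 26 were higher with a median of 0.14, but there 15.5% of all genes were higher and their median was -0.48. With each array centred on its median, 24 of 26 were higher with a median of 0.68, beside 58.2% of all genes and an all-gene median of 0.06. Without non-tumour 405 it was 16 of 26 with a median of 0.08, beside 50.2% of all genes. Without non-tumour 623 it was 18 with a median of 0.25, beside 43.3% of all genes. No gene of the 26 passed the test on any of these scales or with an array left out. The 95% intervals (limma, quantile-normalized) extended above 1 log2 unit for 9 of the 26 and below -1 for 1, and 3 arrays a group did not resolve changes of that size in these genes.

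**Figure D1:**
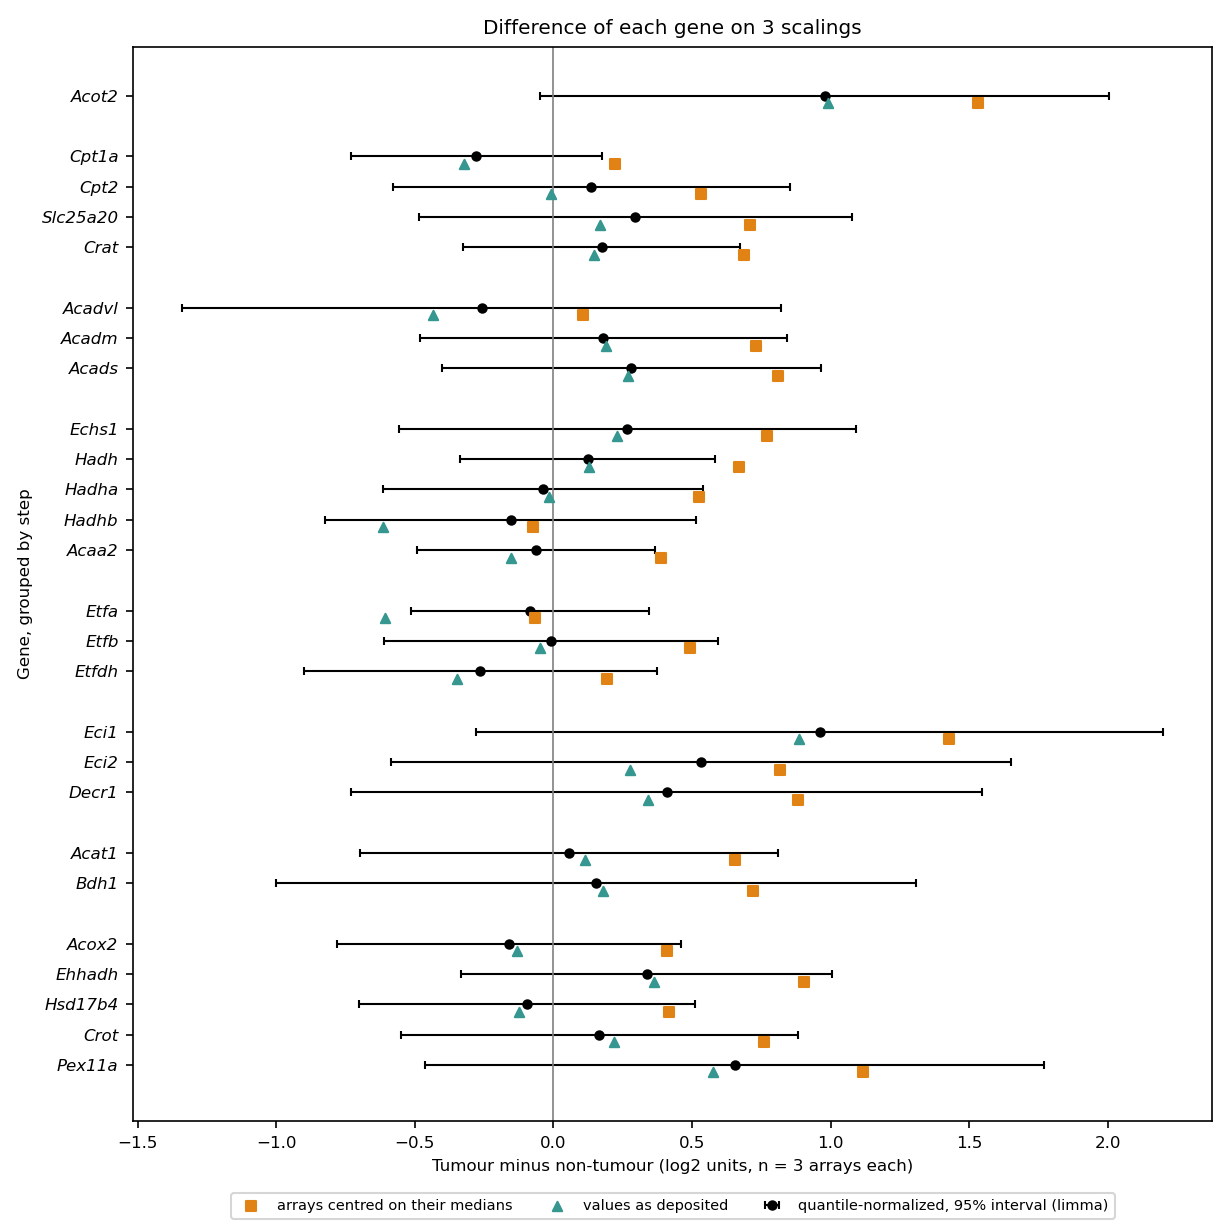
Difference of each of the 26 genes in log2 units, tumour minus non-tumour (n = 3 arrays each), with black points and 95% intervals for quantile-normalized values, and with squares and triangles for median-centred and deposited values. Every interval includes 0, and the median-centred values lie to the right of the quantile-normalized ones.

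Differences of at least 0.5 log2 units were found for 4 genes, all higher in tumour: Acot2, Eci1, Pex11a and Eci2. Over all genes 9.12% reached this size upward and 4.96% downward. None of the 4 passed the test, and none of the other 22 reached that size in either direction. The isomerases Eci1 and Eci2 belong to the same step.

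Acot2 encodes a mitochondrial thioesterase that splits acyl-CoA into free fatty acid and CoA. It lay at 12.10, 10.92 and 12.19 on tumour 405, 483 and 616, against 10.91, 9.97 and 11.38 on non-tumour 405, 483 and 623. Tumour 483 fell between non-tumour 405 and 623, and the other 2 tumours lay above all non-tumour arrays. The difference was 0.98 ± 0.45 (SE, n = 3 each, limma adjusted p = 0.916), 1.97-fold, with a 95% interval from -0.05 to 2.01. With each array left out in turn it was 0.56 (without non-tumour 483) to 1.40 (without tumour 483). Acot2 has the near-identical neighbour Acot1, which had no feature of its own here, and how far the feature reads both was not tested.

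Eci1, the mitochondrial enoyl-CoA isomerase that moves the double bond of unsaturated fatty acids, lay at 10.93, 10.52 and 11.59 on tumour 405, 483 and 616. On non-tumour 405, 483 and 623 it lay at 8.80, 10.88 and 10.49. Non-tumour 405 was the lowest array by a wide margin, and the other 5 overlapped. The difference was 0.96 ± 0.54 (SE, limma adjusted p = 0.916) with all arrays and 0.33 without non-tumour 405. Eci2, the peroxisomal and mitochondrial isomerase, lay at 10.07, 8.98 and 10.14 on tumour 405, 483 and 616, against 8.31, 9.97 and 9.31 on non-tumour 405, 483 and 623. Its difference was 0.53 ± 0.49 (SE, limma adjusted p = 0.916) and 0.09 without non-tumour 405, 0.32 without tumour 616 and 0.93 without non-tumour 483.

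Pex11a, which encodes a membrane protein that drives peroxisome elongation and division, lay at 10.98, 9.04 and 10.69 on tumour 405, 483 and 616. On non-tumour 405, 483 and 623 it lay at 9.71, 9.36 and 9.69. The tumours were the divided group here, with tumour 483 lowest and tumours 405 and 616 highest of all 6 arrays. The difference was 0.65 ± 0.49 (SE, limma adjusted p = 0.916), with an SD of 1.05 among tumours and 0.20 among non-tumour arrays. It was 1.27 without tumour 483 (limma adjusted p = 0.642), 0.27 without tumour 405 and 0.42 without tumour 616.

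The promoters of these 4 genes are shown because they had the largest differences, and to let a reader look for sites of PPAR-alpha, which binds a direct repeat of AGGTCA spaced by 1 base. Each window runs from 250 bases before to 50 after the start site in the RefSeq table (GRCm38.p6), 5′ to 3′ on the gene's strand. Capitals mark matches, on either strand, to the GC box GGGCGG or the CCAAT box, none of which overlap. Acot2 is at chr12:83987611-83987910 (+), Eci1 at chr17:24426433-24426732 (+), Pex11a at chr7:79743082-79743381 (-) and Eci2 at chr13:34994095-34994394 (-).
Acot2: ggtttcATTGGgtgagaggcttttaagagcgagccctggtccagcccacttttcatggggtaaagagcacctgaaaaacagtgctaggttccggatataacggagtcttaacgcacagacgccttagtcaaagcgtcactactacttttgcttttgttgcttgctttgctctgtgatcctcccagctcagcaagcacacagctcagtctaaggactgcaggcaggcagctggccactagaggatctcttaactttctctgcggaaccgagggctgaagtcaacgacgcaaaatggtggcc
Eci1: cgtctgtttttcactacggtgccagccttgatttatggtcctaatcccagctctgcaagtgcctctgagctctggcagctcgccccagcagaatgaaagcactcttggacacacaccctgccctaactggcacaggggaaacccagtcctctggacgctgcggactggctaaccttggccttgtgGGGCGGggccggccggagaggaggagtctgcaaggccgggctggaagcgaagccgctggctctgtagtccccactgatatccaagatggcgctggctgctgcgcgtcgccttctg
Pex11a: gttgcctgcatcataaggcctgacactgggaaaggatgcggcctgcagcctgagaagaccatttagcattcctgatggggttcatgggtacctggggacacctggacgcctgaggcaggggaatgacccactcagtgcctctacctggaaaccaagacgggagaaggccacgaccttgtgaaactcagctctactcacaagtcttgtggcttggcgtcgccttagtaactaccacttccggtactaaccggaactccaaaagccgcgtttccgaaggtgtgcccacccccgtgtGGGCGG
Eci2: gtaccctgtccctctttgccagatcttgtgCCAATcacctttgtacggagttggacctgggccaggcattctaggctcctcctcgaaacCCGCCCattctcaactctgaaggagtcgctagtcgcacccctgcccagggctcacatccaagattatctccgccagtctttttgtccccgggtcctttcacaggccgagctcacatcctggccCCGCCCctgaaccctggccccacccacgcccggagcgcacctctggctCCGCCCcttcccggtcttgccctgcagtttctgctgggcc
Of the 33 listed genes, 28 had a window in the table, 31 windows in all. The repeat AGGTCANAGGTCA was in 0 of the 31 on either strand, where 0.0396% of all 32851 windows held it, and its looser form AGGNCANAGGNCA was also in 0, against 0.381%. Both forms are so rare that 0 of 31 windows cannot tell these genes from any others. The hexamer AGGTCA alone was in 4 windows, those of Acadm, Acadvl, Cpt1a and Echs1 (12.9%, against 16.3% of all). A GC box was in 22 of the 31 (71.0%, against 35.7% of all), including Eci1 with 1, Pex11a with 1 and Eci2 with 3 but not Acot2. A CCAAT box was in 15 (48.4%, against 37.4%), including Acot2 and Eci2. These are matches of letters in a short window and say nothing of binding outside it. Hadha and Hadhb, the alpha and beta subunits of the trifunctional protein, have windows on opposite strands that share 228 bases at chr5:30155003-30155230.

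In the carnitine shuttle, Cpt1a encodes the outer-membrane transferase at which malonyl-CoA inhibits entry. It lay at 12.03, 11.80 and 11.87 on tumour 405, 483 and 616, against 12.49, 12.06 and 11.99 on non-tumour 405, 483 and 623. The overlap was narrow, tumour 405 lying just above non-tumour 623, and the difference was the lowest among the 26 genes at -0.28 ± 0.20 (SE, limma adjusted p = 0.916), but 0.22 after median centring. Slc25a20, the inner-membrane carrier of acylcarnitines, lay at 10.37, 9.28 and 10.23 on tumour 405, 483 and 616 and at 9.48, 9.80 and 9.71 on non-tumour 405, 483 and 623. Tumour 483 was thus the lowest and the other tumours the highest of the 6. Cpt2, the inner transferase (0.14), and Crat, which acts on acetyl groups (0.17), differed by less. Crat varied little, with an SD of 0.11 among tumours and 0.12 among non-tumour arrays.

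The acyl-CoA dehydrogenases take the first step of each round and differ in chain length. Acadvl, for very long chains, lay at 9.08, 10.03 and 10.59 on tumour 405, 483 and 616, against 9.39, 10.64 and 10.46 on non-tumour 405, 483 and 623. Both arrays numbered 405 were low and the other 4 all lay higher. Its difference was -0.26 ± 0.47 (SE, limma adjusted p = 0.928) and its interval the only one to pass below -1. Acadm, for medium chains, averaged 10.93 ± 0.27 in tumour and 10.75 ± 0.42 in non-tumour (SD, n = 3 each). Acads, for short chains, lay at 10.98, 10.24 and 11.17 on tumour 405, 483 and 616, against 10.42, 10.43 and 10.70 on non-tumour 405, 483 and 623.

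The enzymes of the following steps had a median difference of -0.04. Hadha, with hydratase and long-chain dehydrogenase activity, averaged 11.32 ± 0.28 in tumour and 11.36 ± 0.31 in non-tumour (SD, n = 3 each). Acaa2, the mitochondrial thiolase, averaged 12.21 ± 0.28 in tumour and 12.27 ± 0.06 in non-tumour, and Hadh, the short-chain dehydrogenase, 11.73 ± 0.12 and 11.61 ± 0.22. Their 95% intervals (limma) ran from -0.61 to 0.54 for Hadha, -0.49 to 0.37 for Acaa2 and -0.34 to 0.58 for Hadh. None of these 3 intervals reached 1 log2 unit in either direction. Echs1, the short-chain hydratase, lay at 10.998, 9.75 and 10.72 on tumour 405, 483 and 616, against 9.99, 10.49 and 10.19 on non-tumour 405, 483 and 623. It followed the order seen for Slc25a20, with tumour 483 lowest and tumours 405 and 616 highest.

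Hadhb was read by 4 features, of which 2 passed the filter on dim features, and the 2 kept gave -0.11 and -0.20. Its level is the median of those 2, 7.01 ± 0.09 in tumour and 7.17 ± 0.60 in non-tumour (SD, n = 3 each). Its log2 values are close to the filter at 6.22. Etfa, the alpha subunit of the electron transfer flavoprotein, was dimmer still and nearer the filter. It lay at 6.70, 6.40 and 6.41 on tumour 405, 483 and 616 and at 6.86, 6.54 and 6.36 on non-tumour 405, 483 and 623. Etfb, the beta subunit (-0.01), and Etfdh, which passes the electrons to ubiquinone (-0.26), did not differ beyond the spread either. All 3 genes of this step were slightly lower in tumour after quantile normalization, but 2 of them, Etfb (0.49) and Etfdh (0.19), were higher after median centring.

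Decr1, the mitochondrial dienoyl-CoA reductase, acts beside the isomerases on unsaturated fatty acids. It lay at 10.57, 9.50 and 11.14 on tumour 405, 483 and 616, against 9.25, 10.07 and 10.67 on non-tumour 405, 483 and 623. As for Eci1 and Eci2, non-tumour 405 was the lowest array of the 6. The difference was 0.41 ± 0.50 (SE, limma adjusted p = 0.916) with all arrays, 0.03 without non-tumour 405, 0.04 without tumour 616 and 0.87 without tumour 483. The 3 genes of this step had a median difference of 0.53, and 0.09 without that array.

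Of the ketone body enzymes, Acat1, the acetoacetyl-CoA thiolase, averaged 11.22 ± 0.54 in tumour and 11.17 ± 0.39 in non-tumour (SD, n = 3 each). Bdh1, which converts acetoacetate to 3-hydroxybutyrate, lay at 11.90, 11.35 and 11.66 on tumour 405, 483 and 616, against 12.49, 10.24 and 11.72 on non-tumour 405, 483 and 623. The 3 tumours lay between the highest and the lowest non-tumour array, whose spread (SD 1.14) was the widest among the 26 genes in that group. The difference of Bdh1 was 0.15 with all arrays, -0.44 without non-tumour 483 and 0.66 without non-tumour 405.

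Among the peroxisomal genes, Ehhadh, the bifunctional enzyme of straight chains, lay at 12.04, 11.14 and 11.75 on tumour 405, 483 and 616, against 11.23, 11.01 and 11.68 on non-tumour 405, 483 and 623. Its difference was 0.34 ± 0.29 (SE, limma adjusted p = 0.916). Crot, which makes medium-chain carnitine esters for export from peroxisomes, averaged 11.63 ± 0.38 in tumour and 11.46 ± 0.51 in non-tumour (SD, n = 3 each). Acox2, the oxidase of branched chains and bile acid intermediates, and Hsd17b4, the bifunctional enzyme of the same substrates, averaged 11.36 ± 0.36 and 10.71 ± 0.38 in tumour, against 11.52 ± 0.34 and 10.81 ± 0.11 in non-tumour. The peroxisomal genes were divided, with Pex11a, Ehhadh and Crot above 0 and Acox2 and Hsd17b4 below it after quantile normalization, while all 5 were above 0 after median centring.

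**Figure D2:**
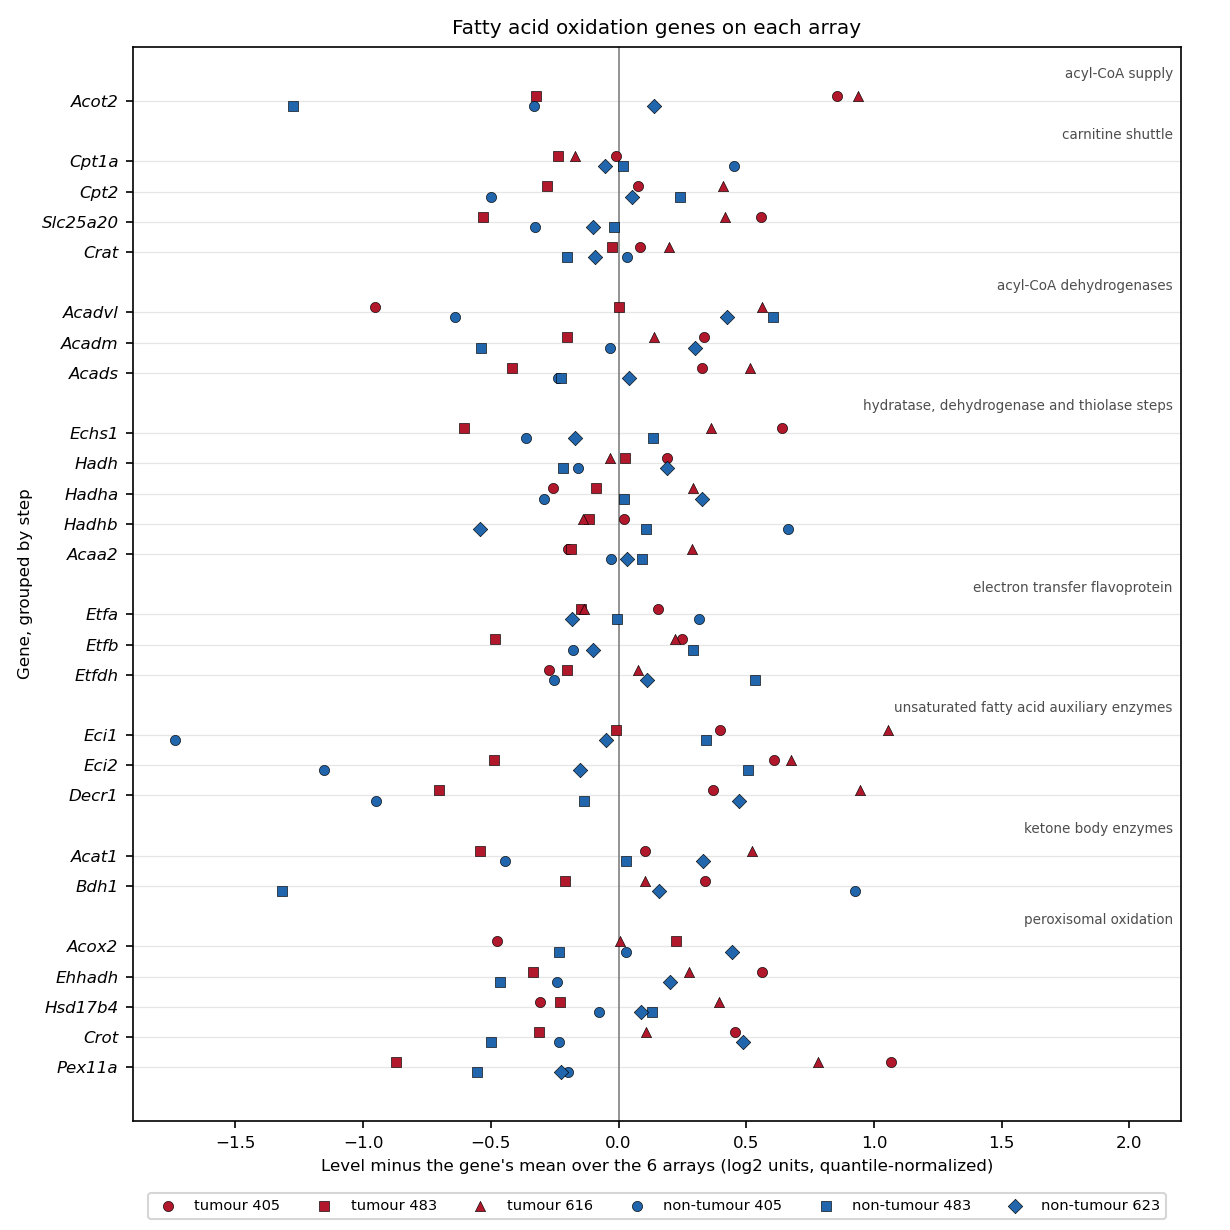
Level of each of the 26 genes on each array in log2 units, as the distance from that gene's mean over the 6 arrays, with red for tumour, blue for non-tumour and a marker shape for each array. Red squares (tumour 483) mostly lie left of the other red markers, and the blue circles (non-tumour 405) of Eci1, Eci2 and Decr1 lie far left.

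The tumours differed among themselves. Tumour 483 was the lowest of the 3 tumours in 18 of 26 genes, where it was so in 37.3% of all genes, and tumour 616 was the highest in 13. Among non-tumour arrays number 405 was the lowest in 14 of 26, where it was so in 34.2% of all genes. The median distance of the 26 genes from their own means was 0.22, -0.23 and 0.29 log2 units on tumour 405, 483 and 616, and -0.23, 0.01 and 0.07 on non-tumour 405, 483 and 623. Acadvl, Hadha, Acaa2, Etfdh, Acox2 and Hsd17b4 went another way, with tumour 405 lowest. Summed markers of Kupffer cells (above) and of endothelial cells were highest on tumour 483 among the tumours. The endothelial sum was 4604, 8560 and 4490 on tumour 405, 483 and 616, against 4938, 3994 and 5906 on non-tumour 405, 483 and 623. The single endothelial markers were divided. Among the tumours Cdh5, Lyve1, Pecam1 and Vwf were highest on 483, Cd34 and Kdr on 405, and Clec4g and Stab2 on 616. Cd34 was higher in tumour without overlap, 1 of 8 such markers, beside 3.97% of all genes. The sum over stellate cell and fibroblast markers was 2278, 8122 and 6543 on tumour 405, 483 and 616, against 5682, 8732 and 7864 on non-tumour 405, 483 and 623. Reln was lower in tumour without overlap, 1 of 9 such markers, beside 3.88% of all genes. The hepatocyte sum was 39777, 53774 and 50522 on tumour 405, 483 and 616. The part of any of these cells, hepatocytes included, in the order was not tested.

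Leaving tumour 483 out raised the count of genes without overlap to 9 of 26, all higher in tumour: Acot2, Slc25a20, Crat, Acads, Echs1, Eci1, Eci2, Ehhadh and Pex11a. With 2 tumours against 3 non-tumour arrays, 12.5% of all genes lay higher without overlap and 11.6% lower. The smaller groups make such gaps more frequent by themselves, and the adjusted p stayed at or above 0.642 (limma) for all 9. Tumour 483 was the lowest tumour in each of the 9, so leaving it out could open gaps only upward in them. Without non-tumour 405 the count was 1 higher (Crat) and 1 lower (Etfdh), against 8.03% and 8.07% of all genes. Without non-tumour 483 it was 1 higher (Eci1) and 0 lower, against 7.56% and 7.58%. Without non-tumour 623 it was 2 higher (Acot2 and Hadh) and 2 lower (Cpt1a and Hadhb), against 12.4% and 19.1%. Without tumour 405 it was 0 higher and 1 lower (Cpt1a), against 5.76% and 6.79%. Without tumour 616 it was 0 higher and 2 lower (Acaa2 and Hsd17b4), against 6.21% and 6.7%. With both directions together, each of these 5 counts was a smaller share of the 26 genes than of all genes.

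**Figure D3:**
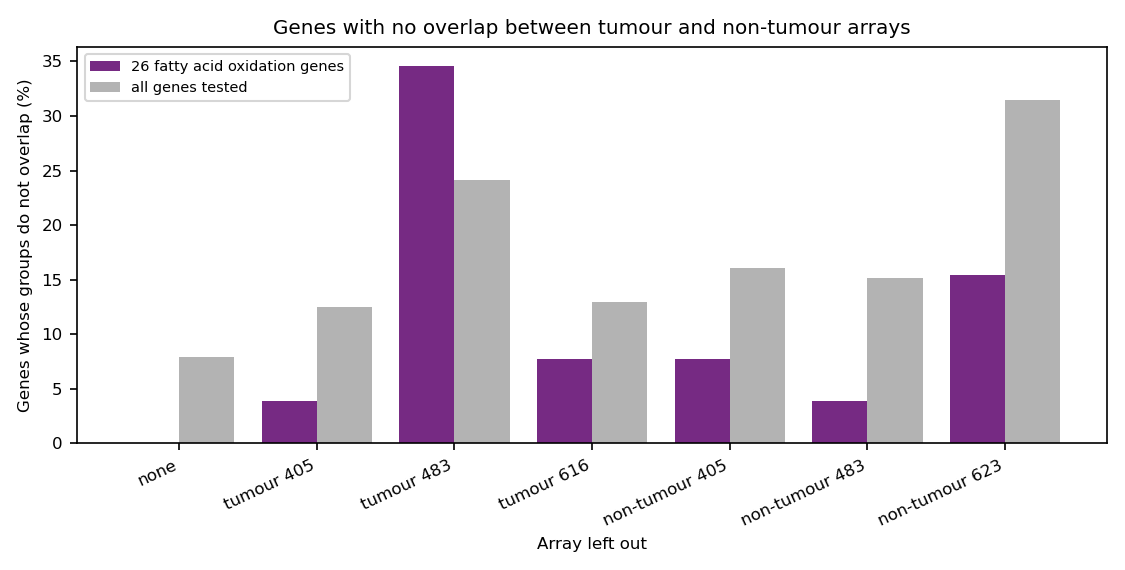
Percentage of genes whose tumour and non-tumour values do not overlap, with all arrays and with each array left out, for the 26 fatty acid oxidation genes (purple) and all genes tested (grey). The purple bar exceeds the grey one only where tumour 483, the lowest tumour in 18 of the 26 genes, is left out (34.6% against 24.1%).

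Other genes of the pathway and its neighbours were set beside the 26. Of 50 further fatty acid oxidation and ketogenesis genes 42 were tested, 24 higher and 18 lower in tumour, with a median of 0.06 and 0 called in either direction. Those with the smallest p were Bdh2 (1.11 ± 0.51), a cytosolic dehydrogenase of the Bdh family, the thioesterase Acot13 (0.94 ± 0.47), and the acyl-CoA synthetases Acsl4 (-1.09 ± 0.55) and Acsl5 (-0.59 ± 0.30), each with an SE and a limma adjusted p of 0.916. Acsl4 prefers arachidonate, and it lay at 9.13, 10.79 and 9.74 on tumour 405, 483 and 616, against 12.04, 10.51 and 10.37 on non-tumour 405, 483 and 623. Without non-tumour 405 the difference was -0.56 for Acsl4, 0.48 for Acot13 and -0.36 for Acsl5, which was -0.11 after median centring, and on the deposited scale Bdh2 was at 0.63. Acot12 (-0.31) and Acsl6 (-0.17) were lower without overlap, 2 of 42 genes beside the 3.88% of all genes. Of peroxisome biogenesis and matrix genes 15 of 20 were higher, with a median of 0.16, of citric acid cycle genes 15 of 21, with 0.10, and of respiratory chain genes 22 of 24, with 0.33. None of these lists had a gene called. Tumour 483 was the lowest tumour in 29 of the 42 further oxidation genes, 11 of the 20 peroxisome genes, 12 of the 21 citric acid cycle genes and 22 of the 24 respiratory chain genes, beside the 37.3% of all genes. Non-tumour 405 was the lowest non-tumour array in 26, 10, 18 and 19 of the same lists, beside the 34.2% of all genes, and its part in their counts of higher genes was not tested.

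**Figure D4:**
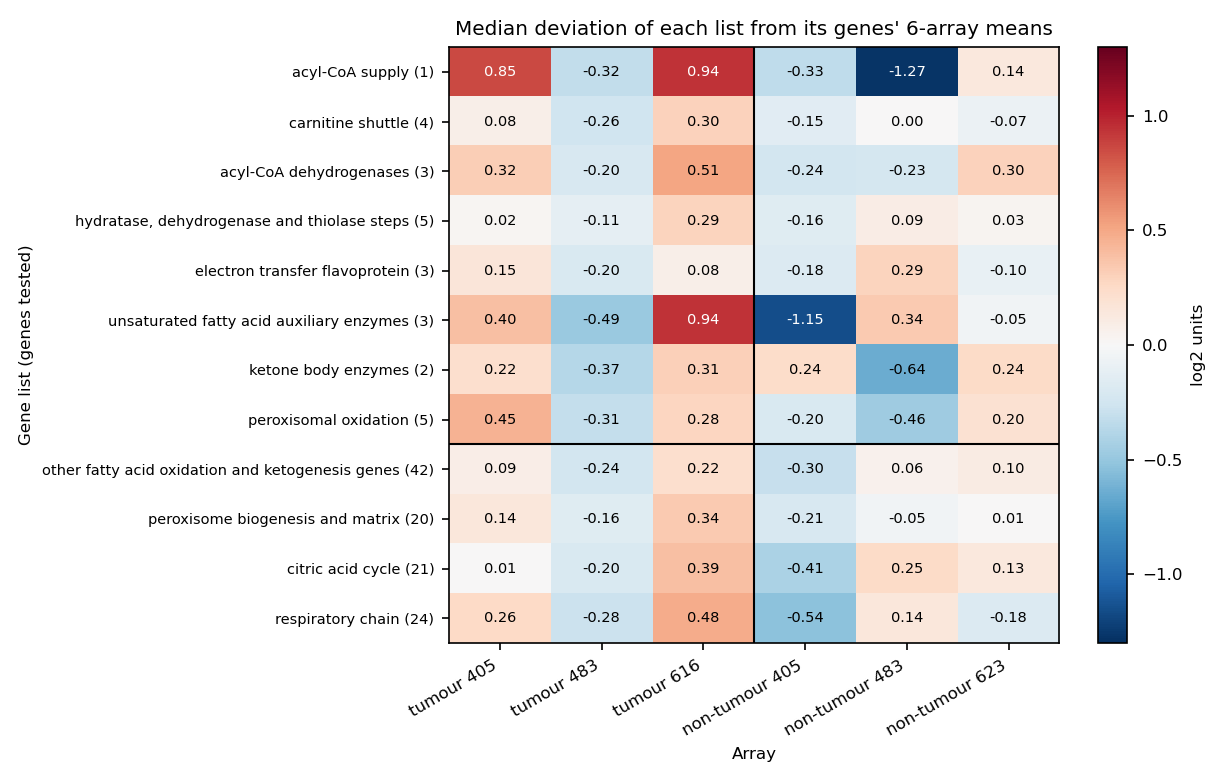
Median distance of the genes of each list from their own 6-array means, in log2 units, for the 8 steps (above the line) and 4 related lists (below it) on 3 tumour and 3 non-tumour arrays, with the number of genes in brackets. Tumour 483 is negative in all 12 lists and tumours 405 and 616 positive, and non-tumour 405 is lowest at the auxiliary enzymes (-1.15).

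Within the peroxisomal list Uox, the urate oxidase of the peroxisome core, was lower without overlap, at 10.73, 10.94 and 11.26 on tumour 405, 483 and 616, against 11.80, 11.58 and 11.75 on non-tumour 405, 483 and 623. Its difference was -0.73 ± 0.22 (SE, limma adjusted p = 0.916), and -0.21 after median centring. Pex11g was also lower without overlap (-0.27) and Pxmp4 higher (0.16), so that 1 of 20 genes lay higher and 2 lower, beside the 3.97% and 3.88% of all genes. Pex10 (0.78 ± 0.37) and Pex14 (0.53 ± 0.30), of matrix protein import, and Agps (0.52 ± 0.31), of ether lipid synthesis, followed by p. On the deposited scale they were at 0.26, 0.095 and 0.0016, and without non-tumour 405 at 0.41, 0.36 and 0.29. In the citric acid cycle Idh3b, a subunit of NAD-dependent isocitrate dehydrogenase, lay higher without overlap (0.68 ± 0.26, SE) and Ogdh, of the 2-oxoglutarate dehydrogenase complex, lower (-0.68 ± 0.29, SE), both with a limma adjusted p of 0.916. After median centring these were 1.24 and -0.23. Of the 21 genes of the cycle 1 lay higher and 1 lower without overlap, beside the 3.97% and 3.88% of all genes. Sucla2, a succinyl-CoA synthetase subunit, differed by 0.49 ± 0.32, and Sdha, of succinate dehydrogenase, by -0.38 ± 0.27 but by 0.15 after median centring. In the respiratory chain Ndufa1, a complex I subunit, lay at 7.85, 6.90 and 7.87 on tumour 405, 483 and 616, against 5.16, 6.63 and 6.997 on non-tumour 405, 483 and 623. Its difference was 1.28 ± 0.47 (SE, limma adjusted p = 0.916), and 0.76 without non-tumour 405. The complex I subunits Ndufb8 (0.93 ± 0.50) and Ndufa2 (0.53 ± 0.29) and the complex IV subunit Cox5b (0.86 ± 0.45) also did not pass. Ndufb8 was at 0.47 without non-tumour 405, and Cox5b at 0.54 without non-tumour 623 and 0.42 without tumour 405.

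Of the regulators, Ppargc1a, the coactivator of oxidative genes, lay at 5.45, 7.85 and 7.28 on tumour 405, 483 and 616, against 9.62, 11.33 and 8.48 on non-tumour 405, 483 and 623. Every tumour was below every non-tumour array. The difference was -2.95 ± 0.80 (SE, limma adjusted p = 0.916), and the call depended on the scale, since on the deposited values, where limma gave all genes the variance of the trend, its adjusted p was 3.56e-07. Ppara, the receptor itself, averaged 10.15 ± 0.21 in tumour and 10.39 ± 0.50 in non-tumour (SD, n = 3 each), a difference of -0.24 that was 0.19 after median centring and 0.05 without non-tumour 405. Among 18 regulators and other PPAR-alpha targets 8 were higher and 10 lower, with a median of -0.06. Without overlap 0 of them lay higher and 1, Ppargc1a, lower, beside 3.97% and 3.88% of all genes. Lpin1, a phosphatidate phosphatase and PGC-1alpha partner, differed by -1.35 ± 0.56 and Pdk4, the kinase that shuts pyruvate dehydrogenase, by 1.14 ± 0.49 (SE, limma adjusted p = 0.916 for both), and Lpin1 by -0.71 without tumour 405. Cidec, a lipid droplet protein, differed by 1.25 ± 0.88, by 2.24 without non-tumour 405 and by 0.27 without non-tumour 483.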

How the data were processed

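RNA of 3 tumour and 3 non-tumorous liver samples was hybridised to 1-colour exon arrays. The authors deposited linear intensity values summarised with PLIER, per the labels, and mm9 is the build in the submitters' processing notes; how background and scaling between arrays were handled is not given in the sources used here. In all, the table held 238609 features, of which 24343 had 1 gene symbol in the platform annotation, 1797 several and 212469 none. Here log2(intensity + 16) was quantile-normalized, features with a mean under the 25th percentile (6.22) were left out, and a gene was the median of its features, which left 16828 genes. Differences were tested with limma 3.58.1 in R 4.3.3 (lmFit, eBayes with an intensity trend, Benjamini-Hochberg over all genes, threshold 0.05). An exact permutation test of 3 against 3 arrays cannot go below a p of 0.1, so none was run. Precision is limited by the number of arrays. In 5 simulated data sets of 16828 genes, 13.8% of 2-fold and 69.4% of 4-fold changes were called. Each set held 2 to 6 wrong calls. These rates describe the simulated sets only. Whether they hold for the real arrays, or for the fatty acid oxidation genes, was not tested. Every listed gene was named, and from each related list the 4 genes of smallest p, with Ppara and Ppargc1a always. The genes and lists were chosen with earlier results of these data known. Alternatives were the deposited scale, median centring, a pseudocount of 1, no filter, the brightest feature, no intensity trend, the number as a block and each array left out. Promoters came from the RefSeq table and were matched by symbol.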

Additional observations from a re-analysis of the deposited data

How the results depend on the processing

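The count of called fatty acid oxidation genes was 0 of 26 under every alternative run, and a pseudocount of 1, no filter, the brightest feature and no intensity trend changed no direction. On the deposited scale limma called 53 of all genes (0.315%), 14 higher and 39 lower, none of the 26, and Cpt2 was at -0.0087. Median centring gave a median of 0.68 and turned Cpt1a (0.22), Acadvl (0.11), Hadha (0.52), Acaa2 (0.39), Etfb (0.49), Etfdh (0.19), Acox2 (0.41), Hsd17b4 (0.42), Sdha (0.15) and Ppara (0.19). The correlation of deviations from the group means was 0.284 between tumour and non-tumour 405 and -0.007 between tumour and non-tumour 483. Tumour 405 was at -0.178 and -0.168 with non-tumour 483 and 623. Tumour 616, whose number no non-tumour array bears, was at 0.248 with non-tumour 483. These values do not settle whether a shared number marks one animal. With the number as a replicate block 0 genes were called, 15 of 26 were higher with a median of 0.12, Acat1 was at -0.011 and Acot2 at 1.07 (limma adjusted p = 0.643). Ppargc1a was at -3.82 with this block (limma adjusted p = 0.056). Leaving out each array in turn gave 1 to 9 of 26 without overlap, 14 to 20 higher, a median of 0.056 to 0.31 and 0 genes called, with 287 to 1744 of all genes at an unadjusted p under 0.05. Signs changed among these for Cpt2 (-0.080 to 0.31), Acadvl (-0.65 to 0.15), Acadm (-0.044 to 0.39), Hadha (-0.19 to 0.12), Hadhb (-0.45 to 0.14), Acaa2 (-0.23 to 0.022), Etfa (-0.19 to 0.053), Etfb (-0.13 to 0.23), Acat1 (-0.19 to 0.35), Bdh1 (-0.44 to 0.66), Acox2 (-0.32 to 0.033), Hsd17b4 (-0.31 to 0.036), Crot (-0.040 to 0.47) and Ppara (-0.43 to 0.048). The cause was not tested. Acot2, Slc25a20, Crat, Acads, Echs1, Hadh, Eci1, Eci2, Decr1, Ehhadh and Pex11a were higher in tumour under all alternatives run. Hadhb and Etfa lay near the filter, where signal over background limits what can be seen.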
